A study of Mus musculus with 18 samples.

Results

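The replication-dependent histone genes were taken as all rows of the table whose symbol starts with Hist1, Hist2, Hist3 or Hist4 followed by h, which gave 68 of 51467 genes. By the class in the symbol these were 6 H1, 20 H2A, 17 H2B, 12 H3 and 13 H4 genes. Of them, the 54 named Hist1 lie on chromosome 13 (GRCm38), all but the pseudogene Hist1h2al (chr13:51202727-51203065) between 21715763 and 23934851, and 10 lie in the Hist2 cluster on chromosome 3, 3 in the Hist3 cluster on chromosome 11 and 1, Hist4h4, on chromosome 6. The annotation lists 3 of them (Hist1h2aj, Hist1h2al and Hist3h2bb-ps) as pseudogenes. They were followed through polysome gradients of mouse embryonic stem cells (ESCs) of 2 genotypes, which were wild type (WT) or lacked Dgcr8 (Dgcr8 knockout, KO). The medium of both held LIF, the 2i inhibitors PD0325901 and CHIR99021, and fetal bovine serum at 15%, and both received 100 ug/ml cycloheximide for 2 minutes, a drug that stalls ribosomes on messages. DGCR8 is needed to make microRNAs, and its KO cells are an established line whose number of clones is not given in the sources used here. For each genotype 3 gradients, spun through 10 to 50% sucrose, gave a monosome fraction, a low polysome fraction of 2 to 4 ribosomes per message and a high polysome fraction of 4 or more, hence 18 libraries in 6 groups of 3. Nothing states that the 3 gradients came from separate cultures, so p-values measure only the spread between these gradients.

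Histone proteins package DNA. H2A, H2B, H3 and H4 are the core histones that form the nucleosome, and H1 is the linker histone that binds where DNA enters and leaves it. The replication-dependent genes are clustered, lack introns in most cases and are expressed in S phase, when new DNA must be packaged. Their messages are the known exception to polyadenylation in animal cells: most end in a conserved stem-loop in place of a poly(A) tail. The stem-loop binding protein SLBP and the U7 small nuclear RNP direct that cut, and SLBP then serves in export, translation and decay. Some histone genes can also give polyadenylated messages from a site downstream of the stem-loop. The libraries were made with QuantSeq, which primes on stretches of A, so the reads below count histone messages that were primed and not all histone messages.

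To see which members carry the usual end, the bases after each stop codon were searched. The stem-loop is shown here for 8 of the members described below, some of which carry a variant of it. Letters are the transcript strand from 5′ to 3′, and capitals mark the 16 bases of the stem-loop, whose first 6 and last 6 bases pair.
Hist1h1c: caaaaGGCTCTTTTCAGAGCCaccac
Hist1h1d: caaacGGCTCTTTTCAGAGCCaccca
Hist1h2ae: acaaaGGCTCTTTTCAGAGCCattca
Hist2h2ac: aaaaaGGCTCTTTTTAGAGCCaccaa
Hist1h2bk: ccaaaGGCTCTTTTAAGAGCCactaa
Hist1h3c: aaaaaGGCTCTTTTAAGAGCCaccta
Hist1h4d: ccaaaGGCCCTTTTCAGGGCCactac
Hist1h4i: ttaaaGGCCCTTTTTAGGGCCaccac

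The capitals stand at chr13:23739512-23739527 (plus strand) in Hist1h1c, chr13:23555787-23555802 (plus) in Hist1h1d and chr13:23570668-23570683 (minus) in Hist1h2ae. They stand at chr3:96220418-96220433 (minus) in Hist2h2ac, chr13:22036300-22036315 (plus) in Hist1h2bk and chr13:23745047-23745062 (minus) in Hist1h3c. In the H4 genes they stand at chr13:23581950-23581965 (plus) in Hist1h4d and chr13:22040966-22040981 (minus) in Hist1h4i. All 8 lie after the stop codon in the 3′ UTR. The letters searched were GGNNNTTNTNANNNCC on the transcript strand in the 150 bases after the stop. They were found in 44 of the 65 members with an annotated protein-coding transcript, against 50 of 20013 other protein-coding genes with at least 50 bases after the stop (0.25%). Among those 44, 8 different stem-loops occurred. The one of Hist1h1c and Hist1h2ae was the most common, with 24 members, and was found in H1, H2A, H2B and H3. H4 genes carried other stems: 7 of the 12 found had that of Hist1h4d, 2 had that of Hist1h4i and none had that of Hist1h1c. Of the 21 members without a match, 19 have an annotated transcript that ends within 48 bases of the stop, among them Hist1h1b and Hist1h2an, so that the window was not read to its end.

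Library totals were 1151649 to 4984833 counts, and the 68 members took 0.0301 to 0.206% of them. Tests used limma on the 12851 genes that reached 3 CPM (reads of a gene scaled to library size) in 3 libraries or more. Of the 68 members, 32 passed: 5 H1, 10 H2A, 9 H2B, 2 H3 and 6 H4. The other 36 held 913 of the members' 47608 counts (1.92%) and at most 18 in a library, and 5 (Hist1h2bq, Hist1h2br, Hist1h4m, Hist2h2aa1 and Hist2h3c1) held none. A gene can pass through 1 group alone. Of the 32, 24 reached 3 CPM in at least 3 libraries of each genotype, 6 reached it in WT libraries only, 1 in KO libraries only and 1 only over both together, so counts over the members tested are a description. Sums over all members of a class do not depend on the filter and are given first. Reads of Dgcr8, the targeted gene, were lower by 1.01 on the log2 scale in KO high polysomes (SE 0.23, limma adjusted p = 2.76e-04) and stood at 8.73 to 58.6 CPM over the KO libraries, so they were not lost from any. All 8 markers of embryonic stem cells on the list used passed the filter, whereas the 8 fibroblast markers summed to 4.66 to 28.6 CPM per library, with Col1a1 called lower in KO cells in all 3 fractions (-2.78 to -1.59). Of the stem cell markers, Pou5f1 (-1.42, SE 0.18, adjusted p = 5.73e-09) and Dppa5a (-1.65, SE 0.19, adjusted p = 9.36e-10) were called lower in KO high polysomes, and both also in translation level (-1.77 and -1.57), in the direction of the histone genes. The part of these markers in the histone results was not tested.

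Summed over all members, histone reads in WT cells were lowest in monosomes, and in KO cells they were lowest in high polysomes. The 3 WT monosome libraries held 859, 663 and 836 CPM, the low polysome libraries 1294, 1049 and 1911 CPM, and the high polysome libraries 1728, 1932 and 1369 CPM (gradients 1, 2 and 3). In KO cells the sums were 755, 613 and 778 CPM for monosomes, 692, 723 and 822 CPM for low polysomes, and 356, 419 and 344 CPM for high polysomes. The genotypes overlapped in monosomes and stood apart in both polysome fractions. The mean of KO high polysomes, 373 ± 40.0 CPM (SD, n = 3), was 4.49-fold under the 1676 ± 285 CPM of WT. The log2 high polysome to monosome ratio was 1.01, 1.54 and 0.71 in the WT gradients and -1.08, -0.55 and -1.18 in the KO gradients. In these bulk fractions, fewer cells making histone messages and fewer messages per cell cannot be told apart. CPM are relative to all reads of a fraction and do not give the amount of RNA in it. WT gradient 3 stood apart from the other two, with the highest low polysome and the lowest high polysome sum.

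**Figure D1:**
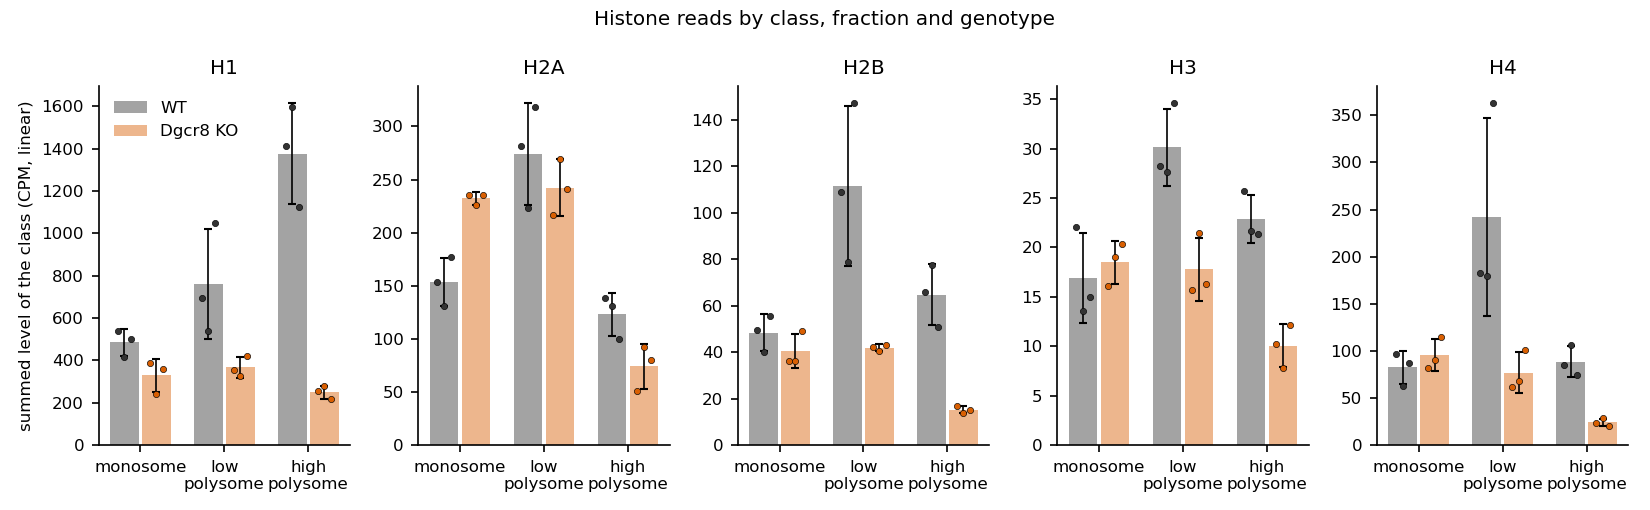
Summed level of all members of each histone class (CPM, linear axis starting at 0, own scale per panel) by fraction and genotype. Bars are means of 3 libraries, points the libraries and error bars 1 SD. H1 is highest in WT high polysomes (mean 1377 CPM), the 4 core classes are highest in WT low polysomes, and in KO cells every class is lowest in high polysomes.

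The classes differed in where their reads lay. In WT cells H1 reads were highest in high polysomes, at 1413, 1595 and 1123 CPM, against 693, 541 and 1048 CPM in low polysomes and 537, 416 and 500.4 CPM in monosomes. H4 reads were highest in WT low polysomes, at 182, 179.7 and 363 CPM, against 85.0, 106.7 and 73.9 CPM in high polysomes and 97.1, 62.6 and 87.5 CPM in monosomes. The other core classes were highest in low polysomes too, and H2A was lowest in high polysomes. H2A summed to 154 ± 22.9, 274 ± 47.9 and 123 ± 20.3 CPM (SD, n = 3) in WT monosomes, low and high polysomes, H2B to 48.4 ± 7.91, 112 ± 34.3 and 64.8 ± 13.3 CPM, and H3 to 16.9 ± 4.57, 30.2 ± 3.88 and 22.9 ± 2.46 CPM. H1 took 82.1 ± 0.411% of the histone reads in WT high polysomes but 53.3 ± 1.68% in WT low polysomes.

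KO cells held fewer reads of every class in high polysomes, without overlap between genotypes. The KO mean was 5.52-fold lower for H1 (249.4 ± 30.4 against 1377 ± 238 CPM), 4.25-fold lower for H2B (15.3 ± 1.47 against 64.8 ± 13.3 CPM) and 3.65-fold lower for H4 (24.3 ± 3.81 against 88.5 ± 16.7 CPM, SD, n = 3). The difference was smaller for H3, 2.28-fold (10.1 ± 2.21 against 22.9 ± 2.46 CPM), and for H2A, 1.66-fold (74.1 ± 21.3 against 123 ± 20.3 CPM). In monosomes the classes parted: KO libraries were lower for H1 (385, 242 and 359 CPM against 537, 416 and 500.4 CPM) and higher for H2A (236, 226 and 235 CPM against 153, 131 and 177 CPM), each without overlap. H2B, H3 and H4 overlapped between genotypes there. The share of H2A among histone reads in monosomes was 32.8 ± 3.54% in KO and 19.6 ± 1.66% in WT cells, and that of H1 45.6 ± 5.81% and 61.7 ± 1.58%.

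The position on the gradient was then followed gene by gene. In WT cells all 5 H1 genes tested had their highest mean in high polysomes, and all 27 core histone genes tested had theirs in low polysomes. This and the KO counts below rest on means, and single gradients differed. In WT gradient 3, Hist1h1a, Hist1h1c, Hist1h1d and Hist1h1e held more in low than in high polysomes (Hist1h1c 199.9 against 172.9 CPM), and Hist1h1b held less (367 against 514.6 CPM). In WT gradient 2, Hist1h2bp held 14.51 CPM in low and 19.46 CPM in high polysomes. In KO cells none of the 32 was highest in high polysomes: 21 were highest in low polysomes and 11 in monosomes, among these 5 of the 6 H4 genes. For comparison, 363 other tested protein-coding genes have a coding sequence (CDS) of 312 to 411 nt, as the core histone genes do. Of these, 60.1% were highest in low polysomes in WT cells and 75.2% in monosomes in KO cells. Of 215 other genes with a CDS of 639 to 672 nt, the range of the 5 H1 genes tested, 36.3% were highest in high polysomes in WT and 15.3% in KO cells.

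**Figure D2:**
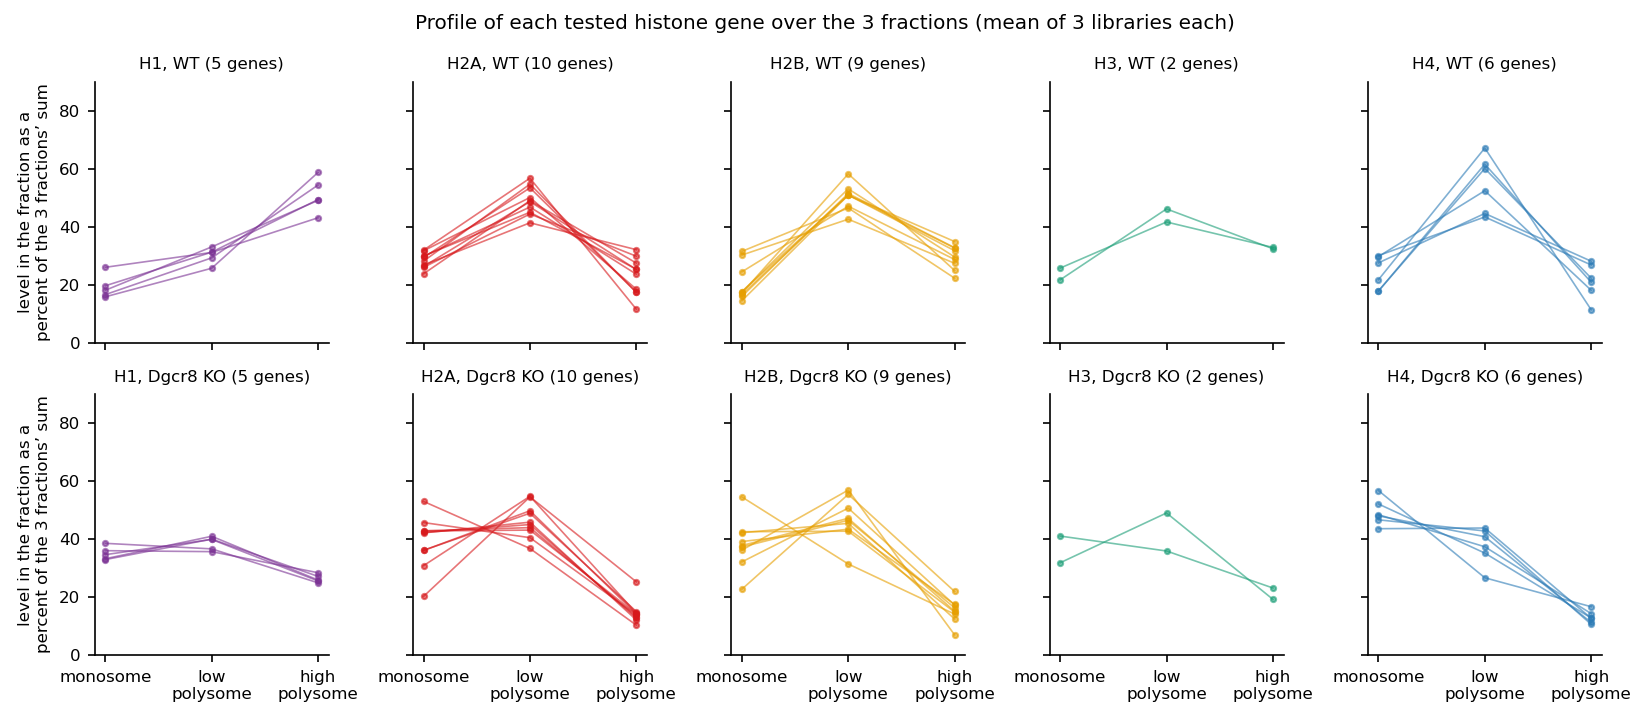
Mean level of each tested histone gene in a fraction as a percent of the sum over its 3 fractions (CPM, 3 libraries per mean), 1 line per gene, by class and genotype. The lines of the 5 H1 genes climb to high polysomes in WT cells, and in KO cells they are flatter and lowest at high polysomes. Those of the 27 core genes peak at low polysomes in WT cells and are lowest at high polysomes in KO cells for nearly all genes.

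The translation level is the ratio of high polysome to monosome reads of a gene. In WT cells it was called higher than 0 on the log2 scale for 4 H1 genes (background 10.7% of 12851 genes), where a call needs both an adjusted p under 0.05 and a change of more than 1 on the log2 scale; in either direction 30.1% were called. These were Hist1h1a (1.31, SE 0.20), Hist1h1b (1.91, SE 0.18), Hist1h1c (1.41, SE 0.20) and Hist1h1d (1.72, SE 0.25), with adjusted p from 9.42e-12 to 6.61e-07 in limma. Hist1h1e had a value of 0.74 (SE 0.17, adjusted p = 2.89e-04), under the fold threshold. Among the core genes 1 was called lower, Hist1h2ag (-1.52, SE 0.61, adjusted p = 0.0339; background 19.3%), a call that is lost without WT replicate 1 or 2. The other 26 core genes lay between -0.95 and 0.93.

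In KO cells no member had a translation level called above 0 (background 17.5%), and 17 of the 32 were called below it (background 25.5%, or 43% in either direction). Among 1722 other genes with a coding sequence as short as the members' 50.75% were called below 0, so the members' share is near that of short genes. For the lengths of single classes this share was 78.95% for H2A, 81.25% for H2B, 71.43% for H4 and 30.7% for H1. The members called were all 6 H4 genes, 8 of 10 H2A and 3 of 9 H2B genes. One of the H2B genes, Hist3h2ba, held 3 reads or fewer in each KO high polysome library, and 6 of the 17 calls (Hist1h2ab, Hist1h2bp, Hist3h2ba, Hist1h4c, Hist1h4h and Hist1h4n) were lost without at least 1 of the gradients. None of the 5 H1 genes was called, with values from -0.63 to -0.27. The H4 genes lay between -2.21 and -1.86, with SE from 0.31 to 0.69, and the H2A genes between -2.34 for Hist1h2af and 0.34 for Hist1h2ad. The value of Hist1h2ad (SE 0.81) rests on 0, 2 and 4 reads in KO monosomes and 3, 4 and 3 in KO high polysomes. The class medians in WT cells were 1.41 for H1, 0.68 for H2B, 0.43 for H3, -0.07 for H4 and -0.25 for H2A. In KO cells they were -0.33 for H1, -1.11 for H3, -1.24 for H2B, -1.64 for H2A and -1.98 for H4.

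The change in translation level, KO against WT, was called lower for 16 of the 32 members and higher for none, where 8.81% of all genes tested were called lower, 6.29% higher and 15.1% in either direction. By class these were 5 of 5 H1, 5 of 10 H2A, 2 of 9 H2B, 1 of 2 H3 and 3 of 6 H4 genes. Among the 1722 other genes with a coding sequence as short as the members', 31.7% were called lower, and shares for each class length are given below. All 32 fitted values were below 0. The class medians were -1.72 for H1, -1.05 for H2A, -1.88 for H2B, -1.54 for H3 and -1.90 for H4, against 0.01 over all genes. The median of the 32 was -1.67, or -1.5 with the 5 members that have a group of 3 counts or fewer in each library (Hist1h2ba, Hist1h2bb, Hist1h2be, Hist3h2ba and Hist1h3a) set at the bound that 3 counts per library allow. In 19 of the 32 the 3 KO gradients lay below all 3 WT gradients, and in none above, where 21.4% of all genes tested had KO gradients below without overlap and 20.3% above. The number called was 10 without WT replicate 1 and 18 without WT replicate 3.

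**Figure D3:**
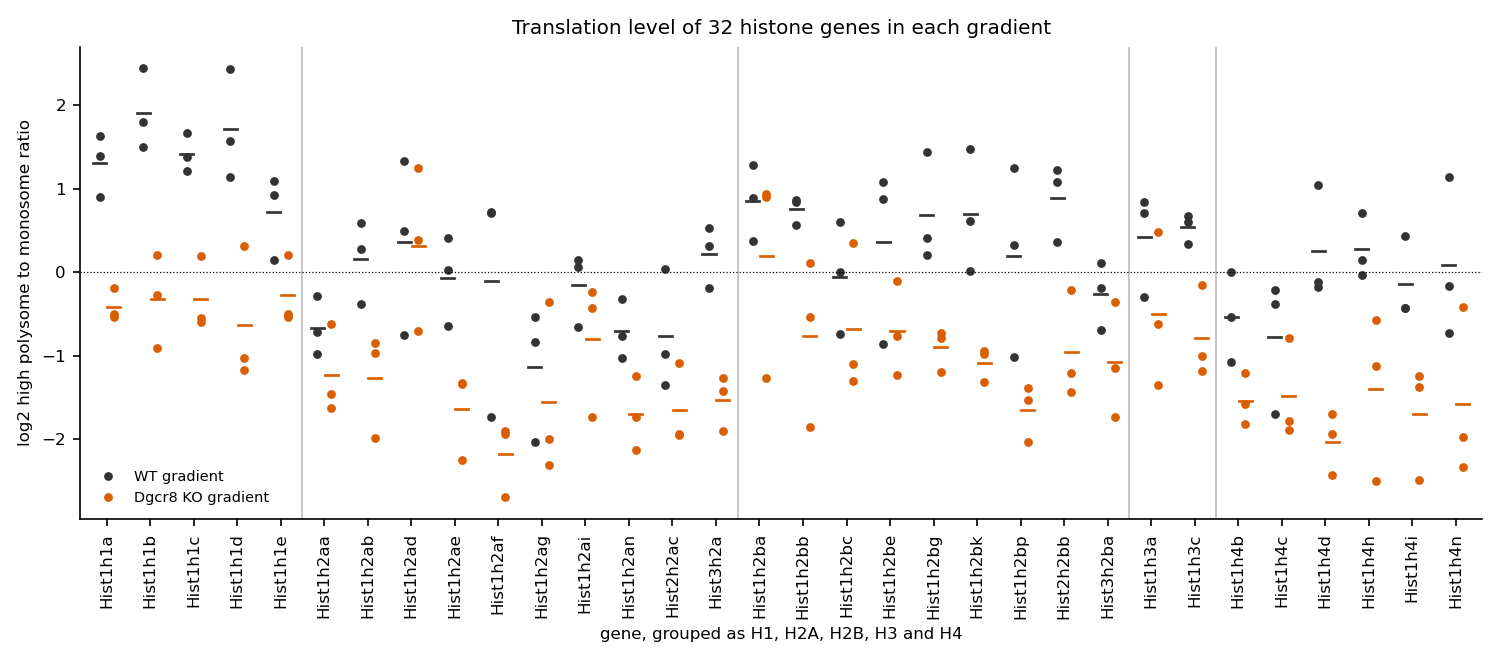
Log2 high polysome to monosome ratio of the 32 tested histone genes in each of the 3 WT and 3 Dgcr8 KO gradients (points) with the mean (bars), grouped by class. The 2 sets of points stand apart for 4 of the 5 H1 genes and for 19 genes in all, and overlap for the other 13.

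Among the H1 genes, Hist1h1b (ENSMUSG00000058773.2, chr13:21779883-21780625, minus strand) changed most in level. Its counted exons end at the stop codon. It held 575, 673 and 515 CPM in WT high polysomes against 53.9, 55.3 and 41.6 CPM in KO high polysomes, and 202, 124 and 148 CPM against 65.0, 47.8 and 78.4 CPM in monosomes. KO libraries were below all WT libraries in both fractions, by a wider margin in high polysomes. The log2 difference was -3.56 in high polysomes (SE 0.19, adjusted p = 3.01e-19), -1.95 in low polysomes (SE 0.19, adjusted p = 1.07e-11) and -1.31 in monosomes (SE 0.21, adjusted p = 3.12e-06). It was the one member called lower in monosomes (background 9.63%). Its translation level was 1.5, 2.44 and 1.8 in WT and -0.27, 0.21 and -0.9 in KO gradients (change -2.25, SE 0.28, adjusted p = 7.51e-08).

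Hist1h1d and Hist1h1c differed from Hist1h1b in that their monosome reads overlapped between genotypes. Hist1h1d (ENSMUSG00000052565.6, chr13:23555087-23555830, plus strand), whose stem-loop is printed above, held 85.1, 47.1 and 70.7 CPM in WT and 85.1, 47.8 and 74.0 CPM in KO monosomes, and the genotypes overlapped. In high polysomes it held 254, 256 and 157 CPM in WT and 41.3, 60.0 and 32.4 CPM in KO cells, without overlap. Its change in translation level was -2.36 (SE 0.35, adjusted p = 2.21e-06). Hist1h1c (ENSMUSG00000036181.2, chr13:23738808-23740367, plus strand) held 89.7, 80.7 and 74.3 CPM in WT and 115.6, 62.1 and 91.3 CPM in KO monosomes. High polysomes of WT held 235, 258 and 173 CPM and those of KO held 76.4, 71.1 and 62.1 CPM. The groups overlapped in monosomes and not in high polysomes, and the change in translation level was -1.72 (SE 0.27, adjusted p = 5.46e-06).

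Hist1h1a and Hist1h1e differed in monosomes as well, under the fold threshold. Hist1h1a changed by -1.71 in translation level (SE 0.31, adjusted p = 3.87e-05), with KO against WT at -0.80 in monosomes (SE 0.24, adjusted p = 0.00658) and -2.51 in high polysomes (SE 0.20, adjusted p = 4.91e-14). Hist1h1e (ENSMUSG00000051627.2, chr13:23621755-23622502, minus strand) held 195, 235 and 160.2 CPM in WT and 52.2, 67.7 and 56.8 CPM in KO high polysomes, and 101.8, 109.7 and 144 CPM against 75.6, 58.3 and 80.7 CPM in monosomes. KO was lower in both fractions without overlap, with a change of -0.72 on the log2 scale in monosomes (SE 0.18, adjusted p = 0.00176). Its change in translation level, -1.01 (SE 0.24, adjusted p = 0.00158), is the smallest of the class and sits at the fold threshold: it was not called with the gradient as a block, and was also lost without WT replicate 1 or 2 or KO replicate 1 or 3. The sixth H1 gene, Hist1h1t, known as the linker histone of the testis, was not tested. It held 3, 4 and 1 reads in WT high polysomes, 1 in a WT monosome library and none elsewhere.

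Of the 32 members tested, 2 were called higher in KO monosomes, both H2A genes, where 8.43% of all genes tested were. Of the 10 H2A genes tested, only 2 had fitted values below 0 there. Hist1h2an (ENSMUSG00000069309.2, chr13:21786826-21787218, minus strand) held 29.5, 16.8 and 27.4 CPM in WT and 51.1, 51.7 and 50.5 CPM in KO monosomes. High polysomes of WT held 17.2, 13.3 and 13.1 CPM and those of KO held 11.2, 21.4 and 14.7 CPM. KO libraries were above all WT libraries in monosomes and overlapped them in high polysomes. It was called higher in KO monosomes (1.11, SE 0.23, adjusted p = 1.93e-04; background 8.43%), a call lost without WT replicate 2, where its value was 0.89. The only other member called higher there was Hist1h2af (1.43, SE 0.39, adjusted p = 0.00321), with 6, 7 and 15 reads in the WT and 30, 45 and 40 in the KO monosome libraries. Hist1h2an shares 85.8% of its 50-base windows with other genes and Hist1h2af 79.7%, so 50 bases do not tell most of either gene from another.

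Hist1h2ae (ENSMUSG00000069272.5, chr13:23570662-23571121, minus strand) gave the most reads of its class, which are not scaled by length. It held 38.8, 43.9 and 53.1 CPM in WT and 68.9, 73.0 and 78.7 CPM in KO monosomes. High polysomes of WT held 51.9, 44.7 and 33.8 CPM and those of KO held 13.9, 28.6 and 30.6 CPM. KO was higher in monosomes and lower in high polysomes, without overlap in either. Neither difference passed the fold threshold alone (0.72, SE 0.22, and -0.84, SE 0.22), but the change in translation level did (-1.57, SE 0.31, adjusted p = 1.75e-04). Hist3h2a (ENSMUSG00000078851.4, chr11:58954685-58956830, plus strand) lies outside the large cluster and shares 2.00% of its windows with other genes. It held 12.87, 12.97 and 13.06 CPM in WT and 3.64, 4.04 and 3.68 CPM in KO high polysomes, and 14.7, 10.3 and 8.84 CPM against 15.6, 12.04 and 9.79 CPM in monosomes. The high polysome values stood far apart and the monosome values overlapped, and the change in translation level was -1.82 (SE 0.45, adjusted p = 0.00204). Hist2h2ac (ENSMUSG00000068855.3, chr3:96220361-96220880, minus strand) changed by -0.93 (SE 0.36, adjusted p = 0.0471), under the fold threshold, with overlapping gradients.

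Of the 9 H2B genes tested, 8 were called lower in high polysomes, 5 in low polysomes and 2 in translation level. All 9 had fitted values below 0 in each of these comparisons. Of all genes tested, 17.9%, 13.6% and 8.81% were called lower. For 16 other genes of their coding length these shares were 43.75%, 37.5% and 75%. Of the 8, Hist1h2ba, Hist1h2bb and Hist1h2bg reached the filter in WT libraries only and Hist3h2ba only over both genotypes, so that these calls are in part set by the filter. Hist1h2bk (ENSMUSG00000062727.4, chr13:22035870-22036345, plus strand) held 21.8, 28.1 and 15.3 CPM in WT and 6.61, 7.15 and 6.67 CPM in KO high polysomes, 44.4, 27.3 and 45.5 CPM against 16.3, 17.6 and 16.8 CPM in low polysomes, and 14.1, 9.68 and 15.0 CPM against 13.3, 14.8 and 17.6 CPM in monosomes. Genotypes were apart in both polysome fractions and overlapped in monosomes, and the change in translation level was -1.88 (SE 0.43, adjusted p = 8.18e-04). Hist1h2bp (ENSMUSG00000069308.7, chr13:21787461-21789213, plus strand) fell by 2.53 on the log2 scale in high polysomes (SE 0.51, adjusted p = 5.02e-05) and by 2.12 in low polysomes (SE 0.37, adjusted p = 6.76e-06), and its change in translation level was -2.05 (SE 0.68, adjusted p = 0.0210), lost without WT replicate 1 or 2 or KO replicate 3. Hist2h2bb (ENSMUSG00000105827.1, chr3:96269752-96270132, plus strand) shares no 50-base window with another gene. It held 6.24, 9.01 and 5.10 CPM in WT and 0.992, 0.932 and 0.919 CPM in KO high polysomes, where each KO library was below every WT library (-2.63, SE 0.55, adjusted p = 8.32e-05). Its change in translation level was -2.09 (SE 0.82, adjusted p = 0.0528), which missed the threshold and passed it with the gradient as a block (adjusted p = 0.0339), as did those of Hist1h2bb and Hist1h2bg (adjusted p = 0.0462 and 0.0478 with the block).

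Of the 12 H3 genes 2 passed the filter. Hist1h3c (ENSMUSG00000069310.3, chr13:23745013-23745501, minus strand) held 15.6, 10.8 and 13.1 CPM in WT and 7.94, 4.04 and 6.90 CPM in KO high polysomes, and 10.1, 8.39 and 7.96 CPM against 8.89, 10.1 and 14.5 CPM in monosomes. The genotypes were apart in high polysomes and overlapped in monosomes. Its fall in high polysomes was -1.07 (SE 0.28, adjusted p = 9.58e-04), lost without WT replicate 1 or KO replicate 2, and the change in translation level was -1.38 (SE 0.44, adjusted p = 0.0160), lost without WT replicate 1 or KO replicate 3. Hist1h3a (ENSMUSG00000069265.2, chr13:23761853-23762386, minus strand) held at most 4.21 CPM in a library and 3 reads or fewer in each KO monosome library. It passed the filter through 5 WT libraries and no KO library, so that a lower value in KO is in part set by the filter. In high polysomes it held 3.12, 2.88 and 1.91 CPM in WT and 0, 0 and 1.38 CPM in KO libraries, called lower (-2.96, SE 0.75, adjusted p = 8.32e-04), and its change in translation level was not (-1.69, SE 1.08, adjusted p = 0.255).

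Among the H4 genes, Hist1h4d (ENSMUSG00000061482.6, chr13:23581598-23581990, plus strand) gave the most reads, again not scaled by length. It held 129.8, 120.5 and 283 CPM in WT and 35.0, 35.9 and 70.9 CPM in KO low polysomes, 54.6, 73.5 and 52.2 CPM against 11.9, 14.9 and 12.2 CPM in high polysomes, and 58.9, 35.5 and 59.2 CPM against 47.8, 50.1 and 68.9 CPM in monosomes. WT gradient 3 was the highest low polysome library, the genotypes did not overlap in either polysome fraction, and they overlapped in monosomes. The change in translation level was -2.36 (SE 0.42, adjusted p = 3.85e-05), and KO against WT was -1.86 in low (SE 0.22, adjusted p = 4.35e-09) and -2.19 in high polysomes (SE 0.31, adjusted p = 9.70e-08). Hist1h4i (ENSMUSG00000060639.5, chr13:22040636-22041362, minus strand) differed in that low polysomes overlapped, where WT held 12.7, 11.2 and 14.5 CPM and KO 13.5, 11.9 and 9.98 CPM. The change there was small (-0.12, SE 0.23, adjusted p = 0.685), that in high polysomes was under the fold threshold (-0.96, SE 0.34, adjusted p = 0.0133), and its change in translation level was -1.74 (SE 0.47, adjusted p = 0.00474), a call lost without WT replicate 1 or KO replicate 3. Hist1h4n (ENSMUSG00000069305.3, chr13:21831767-21832196, minus strand) changed by -2.05 (SE 0.78, adjusted p = 0.0433), a call lost without WT replicate 1 or 2 or KO replicate 2 or 3.

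Within single fractions, the number of members called lower in KO cells was 1 in monosomes, 12 in low polysomes (background 13.6%) and 20 in high polysomes (background 17.9%, and 44.3% among the 1722 other genes of the members' coding length). Those called higher numbered 2 in monosomes (background 8.43%) and 0 in the polysome fractions (background 11.4% in low and 15.1% in high polysomes). Over all genes, calls in either direction made up 18.1% for monosomes, 25% for low polysomes and 33.1% for high polysomes. In low polysomes the 12 were 2 H1, 5 H2B, 1 H3 and 4 H4 genes, and none of the 10 H2A genes, whose values lay between -1.05 and 0.23. In high polysomes the 20 were 5 of 5 H1, 8 of 9 H2B, 2 of 2 H3, 3 of 6 H4 and 2 of 10 H2A genes. Hist1h2ad, Hist1h2ba, Hist1h2bb, Hist1h2bg and Hist1h3a of these reached the filter in WT libraries only. Their calls, and those of Hist1h2bb, Hist1h2bg and Hist1h3a in low polysomes, are thus in part set by the filter. For 3 of these 20, Hist1h2ba, Hist1h2bb and Hist3h2ba, every KO high polysome library held 3 reads or fewer, so that the log2 change is only known to be at most -1.41, -1.79 and -1.08. Calls lost without 1 of the gradients were those of Hist1h1a, Hist1h2bb, Hist1h3a and Hist1h4n in low polysomes, and of Hist1h2ad, Hist1h2ba, Hist1h2bc, Hist3h2ba, Hist1h3c and Hist1h4h in high polysomes, Hist1h4h in 4 of 6 fits and also with the shared number as a block. Without WT replicate 3 the low polysome count was 9, and with a filter of 10 CPM, which 18 members passed, it was 6, and that in high polysomes was 12.

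**Figure D4:**
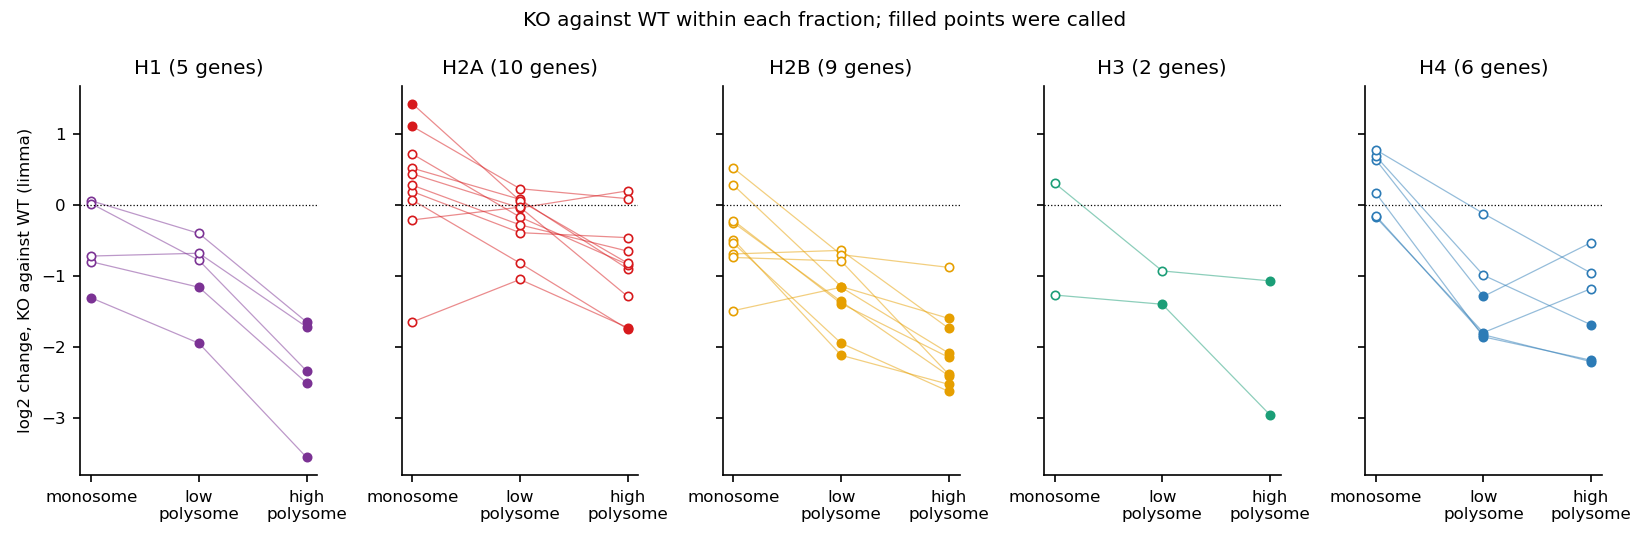
Log2 change of KO against WT (limma) for each tested histone gene in monosomes, low and high polysomes, by class, with filled points for genes called and lines joining 1 gene. H1 genes all lie below -1 in high polysomes, H2A genes start above 0 in monosomes in 8 of 10 cases and are not called in low polysomes, and most H2B and H4 genes are already lower in low polysomes.

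The members code for short proteins: the coding sequence (CDS) is 312 nt in H4, 381 to 384 nt in H2B, 387 to 393 nt in H2A, 411 nt in H3 and 630 to 672 nt in H1, and genes with a short CDS had lower values of the change in translation level. Among 1722 other tested protein-coding genes with a CDS of 312 to 672 nt, the median change was -0.81, and 31.7% were called lower and 0.232% higher. Of the 32 members, 28 lay below that median. Against genes of its own length, the gap was widest for H1: its median was -1.72, that of 215 other genes of 639 to 672 nt was -0.55, and 17.2% of those were called lower. The H4 median was -1.90 against -1.03 for 7 other genes of 312 nt, that of H2B -1.88 against -1.21 for 16 genes of 381 to 384 nt, and that of H3 -1.54 against -1.34 for 13 genes of 411 nt. That of H2A was -1.05 against -1.27 for 19 genes of 390 to 393 nt, so the H2A median was above that of genes of its length. These differences between medians were not tested. Called lower were 42.86% of the other genes of H4 length, 75% for H2B, 69.23% for H3 and 52.63% for H2A. The share of members called was above this for H4 (50%) and under it for H2B (22.22%), H3 (50%) and H2A (50%). These shares were not tested either. What part length takes in the members' change was not tested.

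**Figure D5:**
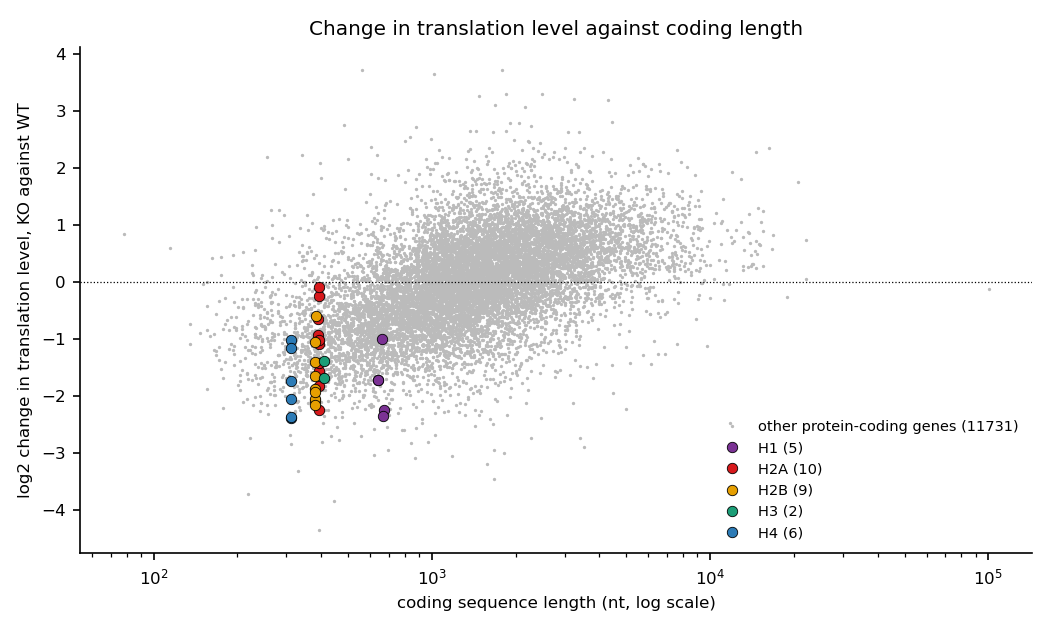
Log2 change in translation level (KO against WT) against CDS length (nt, log axis) for 32 histone genes, coloured by class, and all other tested protein-coding genes in grey. Short genes lie below 0 as a group, core histone genes fall among and under genes of like length, and the H1 genes lie under most genes of 639 to 672 nt.

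Features of the 3′ ends were set beside these values. The polyadenylation hexamer AATAAA was present after the stop in 15 of 65 annotated protein-coding transcripts, and in 7 of the 32 members tested. The median change in translation level was -1.65 for these 7 (range -2.36 to -1.05) and -1.69 for the other 25 (range -2.38 to -0.08). It was -1.69 for the 23 members tested with a stem-loop found and -1.08 for the 9 without. Of these 9, all but Hist1h2bc have an annotated transcript that ends within 48 bases of the stop. The split therefore does not compare messages that have a stem-loop with messages that lack one. The same short transcripts are among the 25 without AATAAA, so that split has the same limit. The richest 20-base window of the counted sequence held 8 to 14 A among the members tested, and the longest run of A over all 68 was 12, in Hist1h2ao and Hist1h2ap. Priming on A inside these messages was not tested. Core genes share much of their sequence with other genes: the median share of 50-base windows also present in another gene was 79.3% in H2A, 66.2% in H3, 47.3% in H2B and 40.4% in H4, against 4.27% in H1. It was 68.2% for the 36 members not tested and 44.9% for the 32 tested. The 20 tested members that share under 50% had a median change of -1.71, with 9 called lower, and the 12 that share more had -1.40, with 7 called lower.

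Promoters of 59 members were matched in RefSeq (GRCm38.p6, 250 bases before to 50 after the start) and read for 4 motifs on both strands, none of which contains another. The H1 box AAACACA was in 5 of 6 H1 promoters, in 2 of 17 H2A, 1 of 14 H2B and in no H3 or H4 promoter, against 7.18% of 32851 promoters. It is shown for the 4 tested H1 genes that hold it, all of which were called lower in translation level, with the motif in capitals on the gene's strand.
Hist1h1b: actaacAAACACAatttgg
Hist1h1c: tgtaacAAACACAagttgg
Hist1h1d: ggcaacAAACACAgccaca
Hist1h1e: tgtaacAAACACAactccg

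They stand at chr13:21780730-21780748 (minus strand), chr13:23738689-23738707 (plus), chr13:23554904-23554922 (plus) and chr13:23622661-23622679 (minus), and the first capital lies at -117, -112, -122 and -115 from the start site. Hist1h1a, called lower too, had no match in its window. The octamer ATTTGCAT, a site of POU factors, was in 7 of 17 H2A and 5 of 14 H2B promoters and in none of the other classes, against 1.74% of all. The octamers of Hist1h2ba, Hist1h2bg and Hist1h2bk are the same bases as those of Hist1h2aa, Hist1h2ae and Hist1h2ah, whose windows overlap theirs. The H1 box of Hist1h2ba is likewise that of Hist1h2aa, so H2A and H2B counts are not independent. CCAAT was in every H1, H2A, H2B and H3 promoter matched but in 3 of 12 H4 promoters, against 37.4% of all. TATAAA was in 40 to 66.7% of the promoters of each class, against 13.6%. These are matches of letters and not evidence of a bound factor.

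Genes that make, carry and degrade histone messages were read from lists. Of 17 genes for 3′ end processing, 4 were called higher and 2 lower in the change of translation level, with a median of 0.67 against 0.01 over all genes. Over all genes tested 6.29% were called higher and 8.81% lower, and no list was tested against these shares. Slbp, the stem-loop binding protein, held 30.6 to 52.6 CPM in WT and 17.01 to 25.5 CPM in KO high polysomes, without overlap (-1.08, SE 0.22, adjusted p = 4.40e-05), and 22.8 to 23.9 CPM against 9.32 to 17.2 CPM in monosomes (-0.76, SE 0.32, adjusted p = 0.0571). Its change in translation level was -0.32 (SE 0.38, adjusted p = 0.581). Lsm10, a protein of the U7 particle, was called lower in translation level (-1.58, SE 0.22, adjusted p = 8.60e-07), and Lsm11, its partner there, was not (0.23, SE 0.28, adjusted p = 0.584). Cpsf1, Cstf2t, Sympk and Wdr33 of the cleavage machinery were called higher (1.05 to 1.29), and Ncbp2, the small cap-binding subunit, lower (-1.02, SE 0.17, adjusted p = 2.12e-05).

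Of 8 genes for histone transcription none was called in translation level (background 15.1% in either direction). Npat, the coactivator of the clusters, had a value of 0.95 (SE 0.33, adjusted p = 0.0247), under the fold threshold. Of 12 genes for translation and decay of histone messages 10 were tested and 2 were called lower (background 8.81%). These were Mif4gd, an SLBP partner in translation (-1.21, SE 0.16, adjusted p = 3.53e-07), and Lsm1 of the decay ring (-1.08, SE 0.29, adjusted p = 0.00443). Of 14 histone chaperones 1 was called, and it was lower (background 8.81%): Asf1a, a chaperone of H3 and H4 (-1.34, SE 0.22, adjusted p = 1.02e-05).

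Since histone messages belong to S phase, 20 other S phase genes were read beside them. In translation level 1 was called higher, Mcm3 (1.08, SE 0.21, adjusted p = 1.31e-04; background 6.29%), and none lower (background 8.81%), with a median of 0.43. In levels, 9.63%, 13.6% and 17.9% of all genes tested were called lower in KO monosomes, low and high polysomes. Of the S phase genes 6 were called lower in monosomes (Mcm4, Mcm5, Rrm2, Cdt1, Gins2 and Rfc4), 2 in low polysomes (Gins2 and Rfc4) and 4 in high polysomes. Their summed level was 3510 to 3566 CPM in WT and 1985 to 2161 CPM in KO monosomes, and 3451 to 3733 against 2697 to 3766 CPM in high polysomes, where the genotypes overlapped. The part of the cell cycle in the histone values was not tested.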

How the data were processed

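The deposited table holds unnormalized read counts for each gene. Per the labels and methods, the authors trimmed QuantSeq 3′ reads with cutadapt 1.14, aligned them to mm10 with STAR 2.5.3a, kept reads that align once and counted them by strand over GENCODE M14 exons with featureCounts 1.5.3. Near-identical histone genes lose reads at that step, and no step on molecular identifiers was stated. The 92 spike-in entries (0.000522 to 0.00215% of counts) were left out.

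Counts were scaled with TMM and fitted with limma-voom (limma 3.58.1, R 4.3.3), 1 mean for each of 6 groups, on the 12851 genes that reached 3 CPM in 3 libraries or more. All tests were two-sided and adjusted over those genes by the method of Benjamini and Hochberg, and a call needed an adjusted p under 0.05 with a log2 change beyond 1 in size. The change in translation level is the genotype by fraction interaction. CPM are TMM-scaled, and ratios per gradient use a prior count of 2. In the smallest library 3 counts, used as the floor, are 2.65 CPM. Errors cover the spread of these libraries only. The scripts were tested on simulated data.

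Within a genotype a replicate number marks the 3 fractions of 1 gradient, which pairs them, although deviations of the same gradient correlated weakly (r from 0.033 to 0.142). WT and KO gradients of the same number share only the number. Alternatives were edgeR 4.0.16, DESeq2 1.42.0, other scalings and filters, no fold threshold, blocks and leaving out each gradient.

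Full values are given for the 3 members of each class with the most reads among those tested and, per class, the member called with the largest change in translation level and a mean count of 20 or more. Hist1h1a, Hist1h1t and the members named for a call or its loss, and Lsm11 and Npat, were named after their values were seen. The members and lists were chosen with earlier results of these data known. Annotation is GENCODE M21 (GRCm38), matched for 51274 genes.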

Additional observations from a re-analysis of the deposited data

Results flagged for a closer look

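Of the genes called higher in KO monosomes, both members were also called lower in translation level by the interaction test. Over all genes tested 8.43% were called higher in KO monosomes. The share of those also called lower in translation level was not counted. Monosome reads are the denominator of that ratio, so the lower ratio is not independent of the rise. For Hist1h2af the difference between its high polysome and monosome effects was -2.25 on the log2 scale (SE 0.56, limma adjusted p = 0.00208), with 1.43 in monosomes and -0.82 in high polysomes. For Hist1h2an it was -1.01 (SE 0.33, adjusted p = 0.0193), with 1.11 in monosomes and 0.09 in high polysomes. That of Hist1h2af was called in each of the 6 fits that left out 1 gradient, and that of Hist1h2an in 3 of 6. Groups of 3 libraries are too small for a test of single outlying libraries.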

How the results depend on the processing

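Members called lower in translation level numbered 16, and 10 to 18 when 1 gradient was left out. That range was 2 to 3 for KO against WT in monosomes, 9 to 16 in low and 18 to 23 in high polysomes, 4 to 7 for the translation level in WT and 16 to 17 in KO cells. With all genes that have a count, 7 members were called in monosomes, 10 for the translation level in WT and 27 in KO cells. A filter of 10 CPM gave 6 in low and 12 in high polysomes, and no fold threshold gave 6 in monosomes and 9 for the translation level in WT. The cause of these moves was not tested beyond the members each filter admits. edgeR called 18 members in translation level, 15 of them shared with limma, and DESeq2 16, of which 15 were shared. Total counts in place of TMM moved the median change of all genes by -0.32 and called 21 members, and with them the H3 sum changed by -1.69 where it was -1.36. The sums of each class kept their direction when 1 gradient was left out, from -2.16 to -1.66 for H1, -1.62 to -1.11 for H2A, -2.08 to -1.54 for H2B, -1.49 to -1.16 for H3 and -2.26 to -1.76 for H4.

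With the gradient as a replicate block 17 members were called in translation level, 14 of them shared, where Hist1h1e and Hist1h2an (-0.92) were lost and Hist1h2bb, Hist1h2bg and Hist2h2bb gained. The block changed no count in WT (5) or KO cells (17). With the shared number as a block, 3, 13 and 19 members were called in monosomes, low and high polysomes. Hist1h2an was also lost with edgeR (-0.94) and DESeq2 (-0.93), and Hist1h1e with DESeq2 size factors. At these depths the precision is low for members with few reads, such as Hist1h2be (SE 1.10) and Hist1h3a (SE 1.08), so a missed threshold does not show that they did not differ.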
